A study of Mus musculus with 7 samples.

Results

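The genes of the proteasome were examined in mouse leukemia cells exposed to the small molecule BRD7116, whose structure the sources used here do not name. Members were all genes whose array symbol begins with Psma, Psmb, Psmc, Psmd, Psme, Psmf or Psmg followed by a digit, a rule that uses no measured value. This took in 45 of the 16593 named genes on the array, through 67 probes. Of these, 43 encode subunits, activators or assembly chaperones of the proteasome, and 2, Psmc3ip and Psme3ip1, match the symbol rule but encode none of these. The cells were mouse cells whose cell type label reads leukemia stem cell and which the growth protocol calls LSCe, taken fresh and kept in suspension for 6 h. One group received 5 µM BRD7116 in 0.2% DMSO (5 arrays) and the other 0.2% DMSO alone (2 arrays), so that the vehicle was shared. The labels used here give no strain, age, genotype or leukemogenic allele, and do not tell whether each replicate was its own culture or animal. Any p-value below thus reflects only how far these samples scatter, and that scatter may be technical.

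The proteasome is the main protease of the cytosol and nucleus. Its barrel-shaped 20S core is built of outer rings of alpha subunits and inner rings of beta subunits, and 3 of the beta subunits cut peptide bonds. A 19S regulatory particle recognises ubiquitin chains, unfolds the substrate with a ring of ATPases and feeds it into the core. Blood cells and cells exposed to interferon exchange the constitutive catalytic subunits for immunoproteasome counterparts, which favour peptides for presentation on MHC class I, and add the PA28 activator. When proteasome activity falls short, the transcription factor NRF1 is known to raise subunit genes together.

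The 7 arrays lay on 3 chips. On chip 1 were BRD7116 replicate 1 and DMSO replicate 2. It is called dim below because 4585 and 4412 probes were detected at a detection p under 0.05, against 6749 to 8451 on the other arrays. Its highest raw intensities were 4515 and 4704, against 27582 to 39654 on the other arrays. Its median raw intensities, 156.0 and 178.4, lay within the 145.3 to 208.4 of the others. BRD7116 replicate 2 shared chip 2 with DMSO replicate 1, and chip 3 carried only BRD7116 replicates 3 to 5. Of 13 progenitor markers on the array, 7 were detected on all arrays, among them Hoxa9, Meis1 and Mpo, while Cd34, Hoxa10, Sox4 and Flt3 were detected on none. Of 7 lymphoid markers 6 were detected on none, and of 9 mature granulocyte markers 4 were detected on all arrays. Of 5 erythroid markers 2 were detected on all arrays, Hba-a1 and Tfrc, and 3 on none, and the summed log2 level of the detected pair was 15.48 to 16.58 with BRD7116 and 17.43 to 17.87 with DMSO; the part of this in the values below was not tested. Levels below are normalised log2 intensities, whose differences can be compared between genes but whose heights cannot, since each probe binds with its own strength. In bulk RNA, fewer cells of a type and less RNA per cell cannot be told apart.

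No proteasome gene passed the test between BRD7116 and DMSO. Of the 45 genes, 38 passed the detection filter and were fitted, and 0 passed an adjusted p of 0.05 by limma, where 0.0% of all 6969 features (genes and unnamed probes) passed. At an unadjusted p under 0.05 there was 1 of 38, against 7.07% of all features, and it was Psme3ip1, which is not a subunit; 3.37% of all features passed with a higher and 3.7% with a lower mean. The 5 treated arrays lay wholly on one side of both controls for 1 of the 38, the chaperone gene Psmd5, against 11.1% of all features, 5.75% with the treated arrays above and 5.4% with them below. The 36 fitted subunits, activators and chaperones had a higher mean with BRD7116 in 23 cases and a lower one in 13, and their median log2 fold change was 0.15 beside 0.046 over all features, of which 55.2% were positive. Scaling the arrays to a common median, without quantiles, shifted all features by a median of 0.54, and relative to that shift 30 of the 36 were positive, with a median of 0.21.

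**Figure D1:**
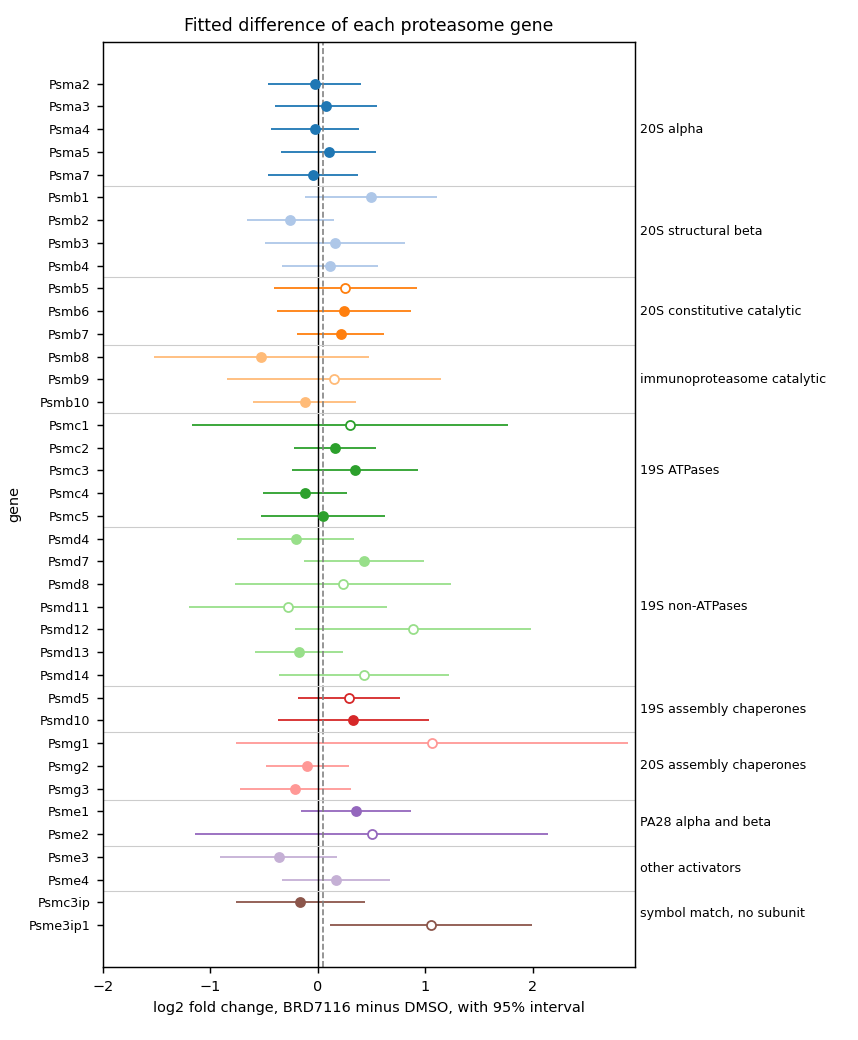
Log2 fold change of BRD7116 over DMSO (horizontal axis) for each of the 38 fitted genes (rows, grouped and coloured by role), with 95% intervals from limma over 5 and 2 arrays. Filled points mark genes detected on all 7 arrays and open points the others; the dashed line is the median of all features at 0.046. Every interval but that of Psme3ip1 includes 0.

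The precision of these differences varied with the signal of the probe. The 95% interval lay wholly within a 2-fold change in either direction for 25 of the 36, and within 1.5-fold for 10. The 26 that were detected on all 7 arrays had a median log2 fold change of 0.062, with 14 higher and 12 lower, beside -0.026 and 45.9% positive over all features detected on all arrays. The 10 that were not detected everywhere had a median of 0.29, with 9 higher, beside 0.13 and 61.1% positive over all features not detected everywhere. The filter asked for detection on any 2 arrays, so a gene could enter through the treated arrays alone. Psmb5 and Psmd14, detected on no control, did so, and both count as higher here and over the 36. Their place on the higher side is thus no independent result. In 8 of these 10, both arrays of the dim chip lay below every other array. Without the dim chip, which left 1 control, the median over the 36 was 0.0048. Within chip 1 it was 0.029 and within chip 2 -0.036.

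**Figure D2:**
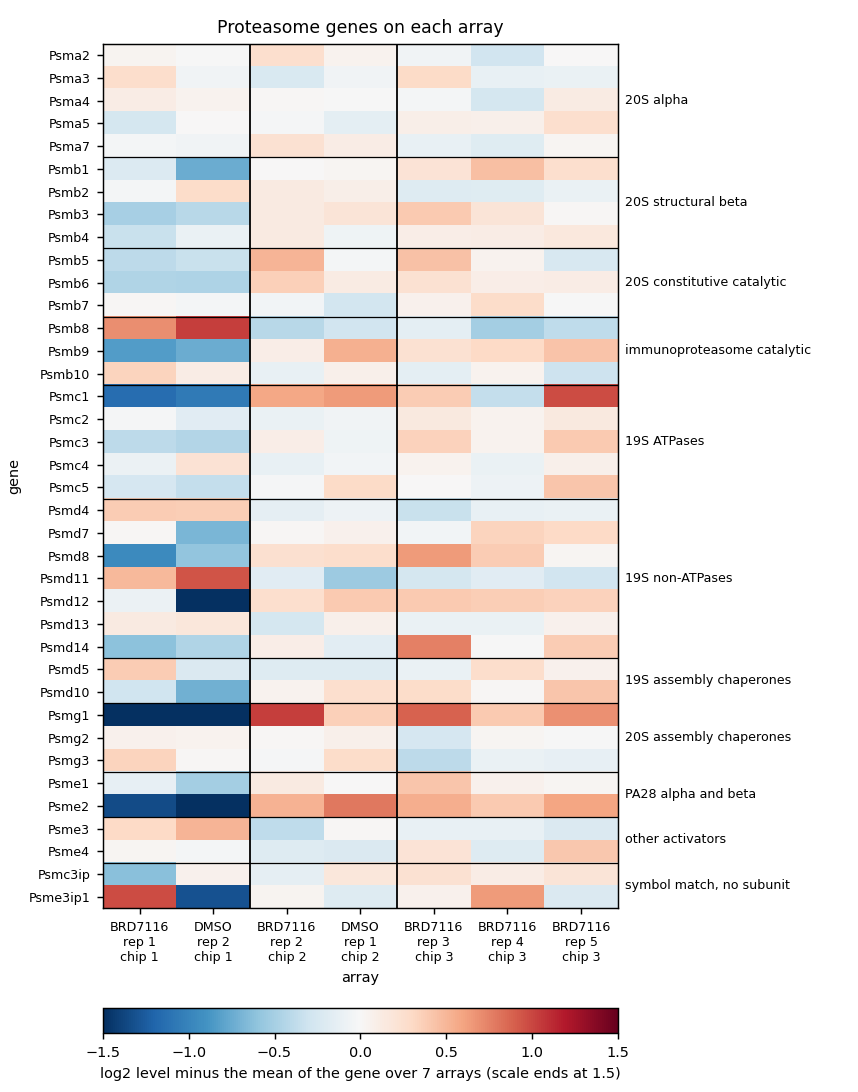
Log2 level of each fitted gene (rows, by role) on each array (columns, by chip) minus the gene's mean over the 7 arrays; colours end at 1.5 log2 units in either direction. Both chip 1 arrays lie above all others for Psmb8 and below all others for Psmb9, Psmc1, Psme2 and Psmg1.

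The alpha subunits form the outer rings of the core and gate its pore. All 5 that were fitted were detected on every array, and their means differed little between the groups, with log2 fold changes from -0.044 to 0.099 and a median of -0.027, or 0.21 under median scaling. Psma2 had 12.08 ± 0.19 (SD, n = 5) with BRD7116 and 12.11 ± 0.045 (SD, n = 2) with DMSO. Psma4 had 10.39 ± 0.15 against 10.42 ± 0.040, and Psma7 had 9.91 ± 0.16 against 9.96 ± 0.12. For all 3 the treated arrays spanned the controls. Psma3 had 10.20 ± 0.23 against controls that both read 10.13, and Psma5 had 11.34 ± 0.19 against 11.24 ± 0.11. The half-widths of the 95% intervals had a median of 0.44, so that changes of 2-fold lay outside all 5 intervals. Psma1 and Psma6 were on the array and failed the detection filter, and no probe carried the symbol Psma8.

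Among the beta subunits with no catalytic site, Psmb1 had the most positive and Psmb2 the most negative difference. Psmb1 read 9.58, 9.80, 10.00, 10.23 and 10.04 on BRD7116 replicates 1 to 5 and 9.82 and 9.05 on DMSO replicates 1 and 2. The DMSO array of the dim chip was the lowest of all 7, and the other control lay among the treated arrays. The fitted difference was 0.497 (standard error 0.27, adjusted p = 0.666 by limma). Within chip 1 the difference was 0.53 and within chip 2 it was -0.019, and without DMSO replicate 2 it was 0.11.

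Psmb2 read 11.51, 11.67, 11.34, 11.36 and 11.43 with BRD7116 and 11.62 and 11.81 with DMSO. The controls were among the 3 highest values, and BRD7116 replicate 2 lay between them. This gave a log2 fold change of -0.26 (standard error 0.17, adjusted p = 0.689 by limma), with -0.31 within chip 1 and 0.044 within chip 2. A second Psmb2 probe gave 0.12. Psmb3 had 9.56 ± 0.34 (SD, n = 5) against 9.40 ± 0.43 (SD, n = 2), and Psmb4 had 11.23 ± 0.21 against 11.11 ± 0.030.

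The 3 constitutive catalytic subunits had somewhat higher means with BRD7116 and a median difference of 0.24 (log2), though Psmb5 had -0.195 under median scaling, and none passed the test. Psmb5 carries the chymotrypsin-like site, the target of the drug bortezomib. It read 4.96, 5.86, 5.79, 5.41 and 5.11 with BRD7116 and 5.33 and 5.02 with DMSO, and was detected on 3 treated arrays and on neither control. The values overlapped, and the level of detection left no fold above 1 as a lower bound. The fitted log2 fold change was 0.26 (standard error 0.29), with -0.054 within chip 1 and 0.54 within chip 2.

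Psmb6, with the caspase-like site, read 8.23, 9.05, 8.92, 8.795 and 8.796 with BRD7116 and 8.81 and 8.22 with DMSO. Both arrays of the dim chip were the lowest, and the other control lay amid the treated arrays. The estimate was 0.24 (standard error 0.27), and leaving out DMSO replicate 1 or 2 gave 0.53 and -0.054. Within chip 1 the difference was 0.0096 and within chip 2 it was 0.23.

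Psmb7, with the trypsin-like site, read 8.62, 8.56, 8.67, 8.87 and 8.59 with BRD7116 and 8.33 and 8.57 with DMSO. One control was the lowest of the 7 arrays and the other fell just above the lowest treated array. Its log2 fold change was 0.21 (standard error 0.17, adjusted p = 0.721 by limma), and it was 0.049 within chip 1 and 0.23 within chip 2. Its 3 kept probes ranged from -0.60 to 0.79, so that the direction rests on the choice of the brightest probe.

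The immunoproteasome catalytic subunits had no common direction, their median being -0.12 (log2), and none passed the test. Psmb8 takes the place of Psmb5, Psmb9 that of Psmb6, and Psmb10 that of Psmb7. Psmb8 read 7.32, 6.22, 6.48, 6.12 and 6.25 with BRD7116 and 6.34 and 7.67 with DMSO. Both arrays of the dim chip were high, and the other control lay inside the range of the remaining treated arrays. The log2 fold change of -0.52 (standard error 0.43, adjusted p = 0.723 by limma) had a 95% interval from -1.52 to 0.48. It was -0.34 within chip 1 and -0.12 within chip 2, and leaving out DMSO replicate 1 or 2 gave -1.18 and 0.14.

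Psmb9 read 5.25, 6.19, 6.32, 6.38 and 6.51 with BRD7116 and 6.62 and 5.34 with DMSO. The dim chip, where Psmb9 was not detected, held the lowest values of both groups, and the other control was the highest of all. The log2 fold change of 0.15 (standard error 0.43) became -0.26 with chip as a block, since it was -0.091 within chip 1 and -0.43 within chip 2. Psmb10 read 9.63, 9.18, 9.15, 9.34 and 8.99 with BRD7116 and 9.36 and 9.40 with DMSO. The controls lay above 4 of the treated arrays and below the one on the dim chip. BRD7116 minus DMSO was -0.12 (standard error 0.21), with 0.23 within chip 1 and -0.18 within chip 2, and its second probe gave 0.22.

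**Figure D3:**
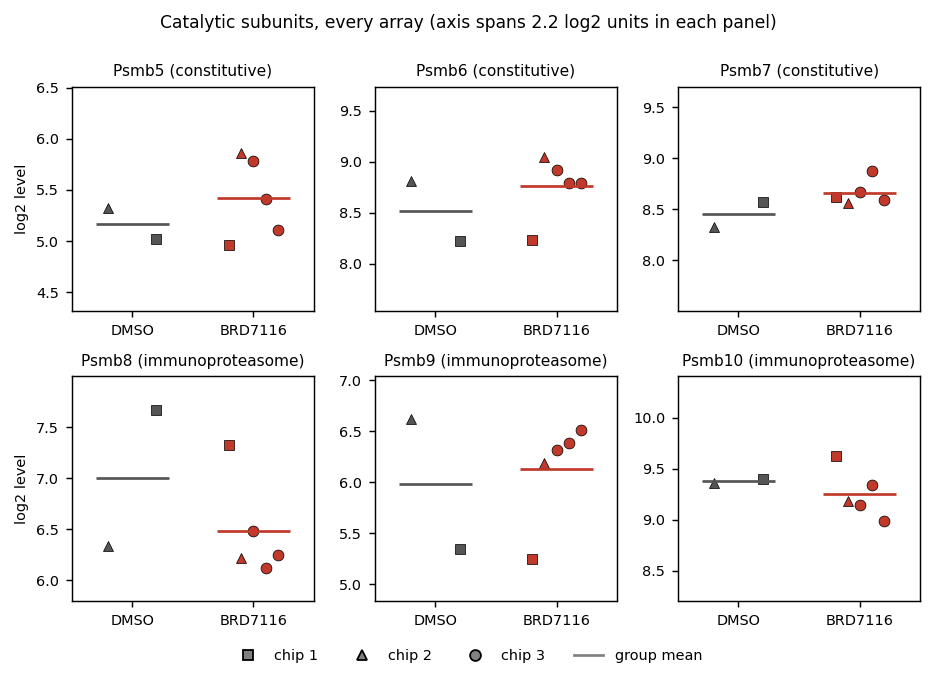
Log2 level (vertical axis, spanning 2.2 units in each panel) of the constitutive catalytic subunits (top) and the immunoproteasome subunit that replaces each (bottom) on every array, with group means as lines and chips as marker shapes. In each panel the BRD7116 values overlap the DMSO values, and the chip 1 arrays are the highest for Psmb8 and the lowest for Psmb5, Psmb6 and Psmb9.

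To compare the forms, the mean of Psmb8, Psmb9 and Psmb10 minus the mean of Psmb5, Psmb6 and Psmb7, each centred on its own mean over the arrays, was taken on every array. It was 0.34, -0.41, -0.27, -0.20 and -0.038 on BRD7116 replicates 1 to 5 and 0.16 and 0.41 on DMSO replicates 1 and 2. Of the treated arrays 4 lay below both controls, and BRD7116 replicate 1, on the dim chip, lay between them. The difference of the means was -0.40 log2 units (-0.12 ± 0.29, SD, n = 5, against 0.29 ± 0.18, SD, n = 2). It was -0.071 within chip 1 and -0.58 within chip 2, and it was -0.28 with normexp, -0.22 without background correction and -0.19 with the authors' values. Psmb5 was near background on most arrays, and over the genes detected on all arrays, Psmb8 and Psmb10 minus Psmb6 and Psmb7, the difference was -0.55, with -0.088 within chip 1 and -0.38 within chip 2. By pair, it was -0.78 for Psmb8 minus Psmb5 (not detected in either control), -0.091 for Psmb9 minus Psmb6 and -0.34 for Psmb10 minus Psmb7, and in each pair the groups overlapped. A wider contrast, which adds the PA28 genes to the immunoproteasome side and sets them against the constitutive core and 19S genes, gave -0.068.

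Constitutive and immunoproteasome genes are known to answer to different transcription factors, so the sequences upstream of 4 catalytic genes are shown. The 150 bases before the annotated start of Psmb5 and Psmb6 are printed because both hold the core of the antioxidant response element, TGACNNNGC, a motif related to the one that NRF1 binds. Those of Psmb8 and Psmb9 are printed as their immunoproteasome counterparts. The sequence of Psmb10 held no match to any motif named below and is not printed. Psmb7 had no promoter in the RefSeq table. Capitals mark the motif match, sequences run 5′ to 3′ on the strand of the gene, and they were taken from RefSeq (GRCm38.p6).
Psmb5, chr14:54617996-54618145, minus strand: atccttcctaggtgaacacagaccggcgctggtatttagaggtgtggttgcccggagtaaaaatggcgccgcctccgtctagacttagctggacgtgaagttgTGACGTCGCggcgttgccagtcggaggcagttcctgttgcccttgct
Psmb6, chr11:70525207-70525356, plus strand: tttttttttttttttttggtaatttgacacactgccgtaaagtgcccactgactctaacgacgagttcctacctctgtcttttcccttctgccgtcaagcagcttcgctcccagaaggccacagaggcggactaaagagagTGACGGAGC
Psmb8, chr17:34198045-34198194, plus strand: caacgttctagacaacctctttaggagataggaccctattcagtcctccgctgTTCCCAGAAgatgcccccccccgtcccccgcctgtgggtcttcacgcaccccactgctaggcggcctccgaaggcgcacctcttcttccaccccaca
Psmb9, chr17:34187331-34187480, minus strand: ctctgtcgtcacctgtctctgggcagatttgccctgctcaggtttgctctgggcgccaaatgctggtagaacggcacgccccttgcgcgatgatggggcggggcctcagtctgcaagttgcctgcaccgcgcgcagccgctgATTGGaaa

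The match lies 47 to 39 bases before the start in Psmb5 and 9 to 1 bases before it in Psmb6. In Psmb8 the capitals mark a gamma-activated site, TTCNNNGAA, which STAT factors can bind, 97 to 89 bases before the start. In Psmb9 they mark a CCAAT box on the opposite strand. The antioxidant core shares its TGAC with sites of AP-1 and CREB. Both strands of the 300 bases that run from 250 before to 50 after each start were searched. The antioxidant core was found in 6 of 39 members with a promoter and in 12.4% of all 32851 promoters. It was in 4 of 25 constitutive core and 19S genes and in 0 of 5 interferon-inducible genes. The gamma-activated site was found in 3 of 39 members and in 8.3% of all promoters, with 1 of 25 and 1 of 5 in these classes. The interferon-stimulated response element core, GAAANNGAA, was found in 6 of 39 and in 8.56% of all. By class it was in 4 of 25 constitutive genes, as many as held the antioxidant core, and in 1 of 5 interferon-inducible genes. The CCAAT box was in 15 of 39 and in 37.4% of all, with 10 of 25 and 1 of 5 by class. These are matches of letters and not sites shown to be bound. Members were counted by gene, with a match in any promoter of the gene, and the shares of all were counted by promoter. The counts and shares are thus not like for like.

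The ATPases that unfold substrates at the base of the 19S particle had a median difference of 0.16 (log2) over 5 fitted genes, which was 0.038 within chip 1, -0.060 within chip 2 and -0.069 with chip as a block. Leaving out DMSO replicate 1 or 2 gave 0.37 and 0.011, and leaving out BRD7116 replicate 5 gave 0.073. Psmc3 read 8.08, 8.57, 8.82, 8.52 and 8.87 with BRD7116 and 8.41 and 8.04 with DMSO. Both arrays of the dim chip were the lowest, and the other control lay below the remaining treated arrays. The fitted difference was 0.35 (standard error 0.25, adjusted p = 0.701 by limma), with 0.038 within chip 1 and 0.17 within chip 2. Psmc2 had the narrowest interval of the fitted genes, from -0.23 to 0.54 around 0.16. Psmc4 had 9.43 ± 0.093 (SD, n = 5) against 9.55 ± 0.18 (SD, n = 2), and Psmc5 had 7.40 ± 0.25 against 7.35 ± 0.46. Psmc1, detected on 4 treated arrays and 1 control, had 5.84 ± 0.84 against 5.54 ± 1.21, with both arrays of the dim chip the lowest. Psmc6 was not fitted.

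The non-ATPase subunits of the 19S particle bind and trim ubiquitin chains and brace the lid. Psmd7, the partner of the deubiquitinase Psmd14, read 7.84, 7.84, 7.78, 8.15 and 8.12 with BRD7116 and 7.89 and 7.14 with DMSO. One control lay amid the treated arrays and the DMSO array of the dim chip was far below all others. This gave a log2 fold change of 0.43 (standard error 0.24, adjusted p = 0.666 by limma), with 0.698 within chip 1, -0.057 within chip 2 and 0.054 without DMSO replicate 2. Its other probe gave -0.099. Psmd4, a ubiquitin receptor, read 11.71, 11.20, 11.001, 11.22 and 11.23 with BRD7116 and 11.26 and 11.70 with DMSO. Both arrays of the dim chip were high, and the other control lay just above the remaining treated arrays. Its log2 fold change was -0.21 (standard error 0.24), with 0.012 within chip 1 and -0.062 within chip 2.

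Psmd12, a scaffold of the lid, was the subunit whose call depended on a single array. It read 6.83, 7.17, 7.31, 7.29 and 7.26 with BRD7116 and 7.32 and 5.26 with DMSO. The 2 controls lay above and below every treated array. In log2 terms the difference was 0.88 (standard error 0.47, adjusted p = 0.666). Without DMSO replicate 1 it was 1.92 with an adjusted p of 0.0092 by limma, in a fit that called 609 features against the lone control of the dim chip, and without DMSO replicate 2 it was -0.15.

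The remaining lid genes overlapped between the groups. Psmd14, the deubiquitinase, had 5.32 ± 0.50 (SD, n = 5) against 4.89 ± 0.21 (SD, n = 2), was detected on 2 treated arrays and on no control, and allowed no fold above 1 as a bound. Psmd8 had 6.00 ± 0.61 against 5.77 ± 0.60 and Psmd11 had 5.48 ± 0.32 against 5.76 ± 1.06. Both were detected on 1 control only. Psmd13 had 10.02 ± 0.15 against 10.19 ± 0.060. The median over the 7 fitted non-ATPase genes was 0.23, and it was -0.032 within chip 1 and -0.057 within chip 2. Psmd1, Psmd2 and Psmd6 were not fitted, and no probe carried the symbol Psmd3.

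Chaperones assemble the particles and do not remain in them. Psmd5 read 6.49, 5.92, 6.02, 6.38 and 6.18 with BRD7116 and 5.92 and 5.89 with DMSO, so that every treated array lay above both controls, the nearest by a margin too small to show in 2 decimals. BRD7116 minus DMSO was 0.29 (standard error 0.21, adjusted p = 0.699 by limma), with 0.595 within chip 1 and 0.0021 within chip 2. Psmd5 was not detected on the DMSO array of chip 1, so that the difference within chip 1 is no measured fold. Psmd10, also known as gankyrin, read 7.89, 8.24, 8.46, 8.20 and 8.60 with BRD7116 and 8.44 and 7.46 with DMSO. The control of the dim chip was the lowest and the other lay amid the treated arrays. The fitted difference was 0.33 (standard error 0.30), with 0.43 within chip 1 and -0.197 within chip 2. The third of these 19S chaperones, Psmd9, was not fitted.

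The 20S assembly chaperones differed among themselves. Psmg3 read 8.33, 7.97, 7.59, 7.89 and 7.86 with BRD7116 and 8.27 and 8.01 with DMSO. The controls lay above 4 treated arrays and below BRD7116 replicate 1. Its log2 fold change was -0.21 (standard error 0.22), with 0.32 within chip 1 and -0.30 within chip 2. Psmg2 had 8.17 ± 0.13 (SD, n = 5) against 8.27 ± 0.016 (SD, n = 2). Psmg1 had the largest fitted difference of the subunits and chaperones, 1.06 (standard error 0.79), and an interval from -0.76 to 2.88. It had 7.02 ± 1.03 against 5.96 ± 1.57, with 5.23 and 4.85 on the dim chip and 7.07 to 7.76 on the other arrays. Psmg1 was not detected on either array of the dim chip, and without DMSO replicate 2 its difference was -0.066. No probe carried the symbol Psmg4, Psmb11 or Psme2b.

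The activators cap the core in place of the 19S particle. Psme1 and Psme2 encode the interferon-inducible PA28 subunits. Psme1 read 9.08, 9.34, 9.62, 9.27 and 9.23 with BRD7116 and 9.21 and 8.695 with DMSO. The control of the dim chip was the lowest, and the other control lay above BRD7116 replicate 1 only. The estimate was 0.36 (standard error 0.22, adjusted p = 0.683 by limma). It was positive within both chips, at 0.39 and 0.13, and its 2 kept probes gave 0.36 and 0.95.

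Psme2 read 4.90, 6.77, 6.79, 6.63 and 6.84 with BRD7116 and 7.03 and 4.74 with DMSO. Each group had its low value on the dim chip, where Psme2 was not detected, and the other control was the highest of all. In log2 terms the difference was 0.50 (standard error 0.71), with 0.16 within chip 1 and -0.26 within chip 2. Leaving out DMSO replicate 1 or 2 gave 1.66 and -0.68.

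Psme3, the nuclear activator PA28 gamma, which is not induced by interferon, read 8.95, 8.28, 8.54, 8.55 and 8.45 with BRD7116 and 8.67 and 9.17 with DMSO. BRD7116 replicate 1 lay between the controls, and the other treated arrays lay below both. BRD7116 minus DMSO was -0.37 (standard error 0.24, adjusted p = 0.684 by limma), an estimated level of 0.776 times that in DMSO. The difference was negative within both chips, at -0.21 and -0.40, and over all 20 alternative fits it ranged from -0.61 to -0.081. Psme4, the activator PA200, had 7.78 ± 0.26 (SD, n = 5) against 7.60 ± 0.13 (SD, n = 2). No probe carried the symbol of the inhibitor gene Psmf1.

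The 2 genes that match the symbol rule but encode no subunit, activator or chaperone are given for completeness. Psme3ip1, which encodes a partner of PA28 gamma, read 7.43, 6.49, 6.51, 7.09 and 6.23 with BRD7116 and 6.25 and 5.14 with DMSO. The control of the dim chip was the lowest and was not detected, so that a difference from it is no measured fold. The other control lay just above the lowest treated array. Its log2 fold change was 1.05 (standard error 0.41, adjusted p = 0.658 by limma), with 2.29 within chip 1 and 0.24 within chip 2, and its other probe gave -0.013. Psmc3ip, a cofactor of meiotic recombination, had 7.31 ± 0.35 (SD, n = 5) against 7.48 ± 0.077 (SD, n = 2).

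**Figure D4:**
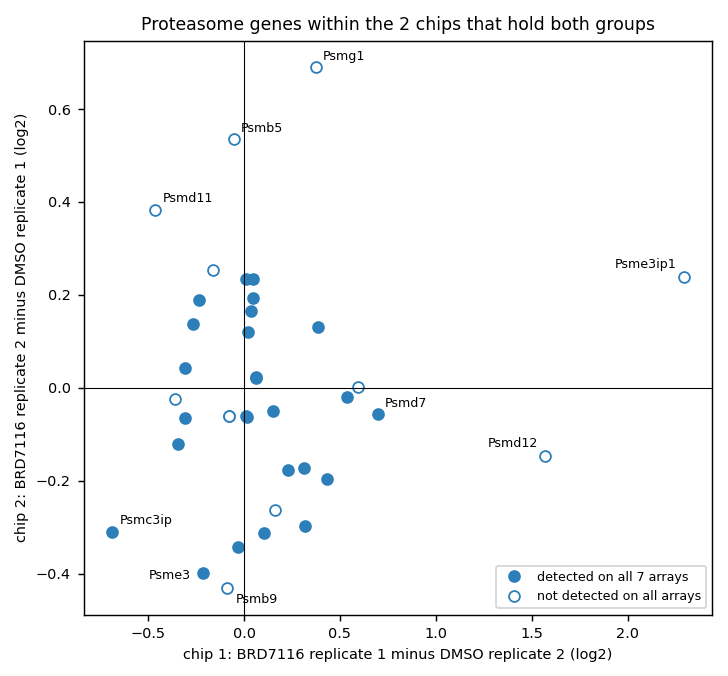
Difference of BRD7116 minus DMSO in log2 units within chip 1 (horizontal axis) and within chip 2 (vertical axis) for each fitted gene, 1 array of each group per chip; filled points were detected on all 7 arrays. The points scatter around 0 on both axes, and Psme3ip1 (2.29) and Psmd12 (1.57) lie far out in chip 1 alone. Neither of these genes was detected on the DMSO array of chip 1.

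The chips that held both groups give the comparison free of differences between chips, with 1 array against 1. The sign of the difference was the same in both chips for 18 of the 36 fitted subunits, activators and chaperones, where 53.1% of all features had the same sign. In chip 1 the difference was positive for 22 of 36 and in chip 2 for 16 of 36. By subgroup, the alpha subunits had medians of 0.047 and 0.12 in chips 1 and 2, the constitutive catalytic subunits 0.0096 and 0.23, and the immunoproteasome catalytic subunits -0.091 and -0.18.

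Partners of the proteasome outside the symbol rule were read from 3 lists, and no gene of them passed the test. Of 11 fitted cofactors and shuttle factors, 9 had a higher mean, where 55.2% of all features did, and the median difference was 0.31. Within chip 1 it was 0.34, with 9 of 11 positive, and within chip 2 -0.041, with 4 of 11 positive. Only 5 of the 11 were detected on all arrays. Ube3c, a ubiquitin ligase that binds the proteasome, read 5.32, 5.66, 5.58, 5.38 and 5.68 with BRD7116 and 5.12 and 4.69 with DMSO, with all treated arrays above both controls, and its signal passed detection on 3 treated arrays and on neither control. Since both controls were at background, its fitted difference of 0.62 (standard error 0.20, adjusted p = 0.658 by limma) is no measured fold, and the level of detection left no fold above 1 as a lower bound.

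Of 9 fitted genes known to be induced when proteasomes are inhibited, 6 had a higher mean, where 55.2% of all features did. Their median was 0.21, with 0.18 within chip 1 and 0.090 within chip 2. Ddit3, the stress-induced transcription factor CHOP, read 9.10, 8.63, 8.10, 8.34 and 8.25 with BRD7116 and 7.13 and 6.96 with DMSO. It was detected on all arrays, and the groups lay apart, with every treated array above both controls. Its log2 fold change was 1.44 (standard error 0.28), with an unadjusted p of 0.00096 and an adjusted p of 0.658, both by limma. Within chip 1 the Ddit3 difference was 2.146 and within chip 2 it was 1.502. Of the heat shock chaperones and cochaperones on the list, 4 were fitted and are named after their values were seen. The difference was 0.013 for Hspa8 (standard error 0.19), -0.081 for Dnajb1 (standard error 0.19) and -0.23 for Bag3 (standard error 0.19), which were detected on all arrays. For Dnaja1, detected on 2 treated arrays and 1 control, it was 0.41 (standard error 0.45), with 1.81 within chip 1 and -0.38 within chip 2. The other fitted genes of the list were added in the same way. Sqstm1 (0.21, standard error 0.17) had every treated array above both controls, with 0.18 within chip 1 and 0.38 within chip 2. Zfand2a gave 0.32 (standard error 0.20), with 0.64 and 0.26. Gclm, detected on 4 treated arrays and 1 control, gave 0.69 (standard error 0.62), with 0.27 and 0.032. Srxn1, detected on 4 treated arrays and both controls, gave -0.40 (standard error 0.48), with -1.54 and -0.59.

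Of 14 fitted genes of antigen processing and interferon signalling, 9 had a higher mean, where 55.2% of all features did, with a median of 0.13. Within each chip 7 of 14 were positive, with medians of -0.00043 within chip 1 and 0.018 within chip 2. Tap2, a subunit of the peptide transporter, had 7.54 ± 0.24 (SD, n = 5) against 6.80 ± 0.66 (SD, n = 2), with 0.96 within chip 1 and 0.32 within chip 2. Tapbp, which tethers that transporter to MHC class I, read 5.37, 5.95, 5.75, 6.15 and 6.09 with BRD7116 and 6.24 and 7.88 with DMSO. All treated arrays lay below both controls, and the difference was -2.52 within chip 1 and -0.29 within chip 2. Tapbp was detected on both controls and on 4 treated arrays. BRD7116 replicate 1, on chip 1, was below detection, so that the chip 1 difference is no measured fold. The unadjusted p was 0.032 for Tap2 and 0.022 for Tapbp, and the adjusted p by limma was 0.658 for both. Without DMSO replicate 1 both passed, at 1.20 and -2.01, in the same fit with 609 calls.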

How the data were processed

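Total RNA was labelled with biotin and hybridised to Illumina MouseRef-8 BeadChips, per the labels' protocols. The authors deposited an intensity and a detection p-value for each of 25697 probes on 7 arrays, not normalized per the file headers. The authors also deposited log2 values, whose method is not given in the sources used here and whose median was 7.52 on each array. These served as an alternative.

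Intensities were background-corrected, offset by 16 and quantile normalized with neqc (limma 3.58.1, R 4.3.3), with the negative controls deduced from detection p. Kept were probes detected (p under 0.05) on 2 or more arrays, and the probe of highest mean stood for each gene, which gave 6969 features. BRD7116 (5 arrays) and DMSO (2 arrays) were compared by lmFit and eBayes, two-sided, with no covariates and Benjamini-Hochberg adjustment over all features at 0.05. The number of arrays limits the precision. All 45 members matched a RefSeq gene of the same symbol by gene identifier, and 39 had a promoter in the RefSeq table.

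Members, lists, tests and alternatives were chosen with earlier results of these data known. Genes given on each array were the catalytic subunits, Psme1, Psme2, Psme3 and the 5 most positive and 5 most negative members detected on all arrays; the other fitted members are given by group means, and from other lists those with an unadjusted p under 0.05. Array values of Psmd5, Psmd12 and Psme3ip1 were added after they were seen, as were the other fitted genes known to be induced when proteasomes are inhibited. Equal replicate numbers lay on different chips, so they were not taken as pairs. Their deviations from the group means correlated at -0.52 and -0.32. With 2 controls the deviation of one is the negative of the other, so these correlations cannot test pairing. Alternatives changed background correction, scaling, filter, probe choice, prior, array weights and blocks, or left out arrays. Under median scaling, which moved the median of all features to 0.54, values were taken relative to it.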

Additional observations from a re-analysis of the deposited data

Results flagged for a closer look

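A single treated array lay well outside the range of the remaining 4 for 6 of 39 genes and scores looked at, and chance alone does so for about 1 in 20. In 5 of the 6 it was BRD7116 replicate 1, on the dim chip. Psme2 read 4.90 there against 6.63 to 6.84 on the other treated arrays, Psmg1 5.23 against 7.11 to 7.76, Psmb9 5.25 against 6.19 to 6.51 and Psmb4 10.86 against 11.29 to 11.36. Psmd11 was high on that array, at 6.04 against 5.28 to 5.39. In the remaining case Psmg2 read 7.95 on BRD7116 replicate 3 against 8.19 to 8.27. For Psme2, Psmg1 and Psmb9 the DMSO array of the same chip was low as well, at 4.74, 4.85 and 5.34, and for Psmd11 it was high, at 6.51.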

How the results depend on the processing

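No proteasome gene passed the threshold in any of the 20 alternative fits except Psmd12 without DMSO replicate 1; without that array Tap2 (1.20) and Tapbp (-2.01) passed as well. The signal of the dim chip and the 2 controls limit every value, and the cause of the turns below was not tested. The replicate block gave the same values as chip as a block, since either averages the differences of chips 1 and 2, and changed no call. Over all features, 1 passed with normexp, the authors' values, no detection filter, detection on all 7 arrays and chip as a random block, 2 without background correction and with a trend and robust prior, and 0 to 609 when 1 array was left out. The number of proteasome genes called higher was then 0 to 1.

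The median of the 36 subunits, activators and chaperones was 0.084 without background correction, 0.073 with the authors' values, 0.078 with no detection filter, 0.062 with detection on all 7 arrays, 0.033 with chip or replicate block, 0.043 with chip as a random block, 0.029 within chip 1, -0.036 within chip 2, 0.0048 without chip 1 and -0.026 to 0.19 when 1 array was left out. In that order, the 19S non-ATPase median was 0.066, 0.056, -0.12, -0.17, -0.025, -0.049, -0.032, -0.057, 0.067 and -0.029 to 0.58, and it was 0.096 with normexp, 0.036 with median scaling, 0.17 with the mean of probes and 0.43 with array weights. The alpha median was 0.21 with median scaling, 0.070 with either block and 0.12 within chip 2. The structural beta median was 0.37 with median scaling, -0.047 with either block and -0.16 within chip 1. The 19S ATPase median was -0.069 with either block and 0.011 to 0.37 when 1 array was left out. The immunoproteasome catalytic median was 0.047 with the mean of probes. Immunoproteasome minus constitutive catalytic subunits was -0.071 within chip 1, and -0.52 to -0.29 when 1 array was left out.

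Single genes turned sign as follows. With chip or replicate block: Psma2 0.12, Psma4 0.041, Psma5 -0.065, Psma7 0.070, Psmb10 0.024, Psmb3 -0.071, Psmb4 -0.024, Psmb9 -0.26, Psmc1 -0.069, Psmc5 -0.10, Psmd8 -0.19, Psme2 -0.052 and Psmg3 0.011. With chip as a random block: Psma2 0.069, Psma4 0.018, Psma5 -0.0094, Psma7 0.031, Psmb9 -0.12, Psmc5 -0.053 and Psmd8 -0.049. With median scaling: Psma2 0.16, Psma4 0.20, Psma7 0.21, Psmb10 0.17, Psmb5 -0.195, Psmb9 -0.082, Psmc3ip 0.17, Psmc4 0.16, Psmd13 0.075, Psmd4 0.036, Psmg2 0.21 and Psmg3 0.0998. With the mean of probes: Psma7 0.023, Psmb10 0.047 and Psmg2 0.11. Without both arrays of chip 1: Psmb3 -0.0081, Psmb9 -0.298, Psmc1 -0.29, Psmc4 0.026, Psmc5 -0.22, Psmd10 -0.059, Psmd11 0.38, Psmd12 -0.061 and Psme2 -0.29. Leaving out 1 array gave Psma2 -0.098 to 0.039, Psma4 -0.061 to 0.035, Psma7 -0.13 to 0.036, Psmb3 -0.14 to 0.46, Psmb6 -0.054 to 0.53, Psmb8 -1.18 to 0.14, Psmb9 -0.52 to 0.80, Psmc1 -0.59 to 1.16, Psmc4 -0.24 to 0.011, Psmc5 -0.28 to 0.37, Psmd10 -0.16 to 0.82, Psmd11 -1.04 to 0.50, Psmd12 -0.15 to 1.92, Psmd4 -0.43 to 0.013, Psmd8 -0.21 to 0.67, Psme2 -0.68 to 1.66 and Psmg1 -0.066 to 2.17. Psma3, Psmb1, Psmb2, Psmb7, Psmc2, Psmc3, Psmd5, Psmd7, Psmd14, Psme1, Psme3, Psme3ip1 and Psme4 kept their sign in every fit over both groups that measured them, but the difference was of opposite sign within chip 2 for Psma3 (-0.17), Psmb1 (-0.019), Psmb2 (0.044), Psmc2 (-0.049) and Psmd7 (-0.057) and within chip 1 for Psmd14 (-0.16).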
